A study of Homo sapiens with 20 samples.

Results

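The CDK inhibitor genes are the 7 genes CDKN1A, CDKN1B, CDKN1C, CDKN2A, CDKN2B, CDKN2C and CDKN2D, and they were described here in RNA-seq libraries of U2-OS cells. They were chosen by symbol, as the 7 rows with these names among the 20314 genes of the deposited count table, and 6 of the 7 had enough reads to be tested. U2-OS is a human osteosarcoma cell line. The series holds 20 libraries in 4 groups of 5 biological replicates, and it compared 2 times after DNA damage and the loss of an NF-κB inhibitor with untreated cells. The first group was untreated. The next 2 groups were irradiated (IR) with 20 Gy and harvested after 90 minutes (1.5 h post-IR) or after 7 days (7 days post-IR). The fourth group was not irradiated and carried an shRNA against NFKBIA, the gene of IκBα, which holds NF-κB in the cytoplasm. All groups were grown in DMEM with fetal calf serum. According to the methods, knockdown lines were made by lentiviral transduction and puromycin selection, the shRNA was induced by doxycycline, and cells with an induced scrambled shRNA served as controls. The labels name no vector and no doxycycline for the untreated libraries, so that the shRNA, its vector and doxycycline cannot be told apart as sources of a difference between the knockdown and untreated libraries. Whether the replicates of a group came from separate cultures was not stated beyond the word biological.

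CDK inhibitors are small proteins that stop cyclin-dependent kinases (CDKs), the enzymes that drive the cell cycle. The CIP/KIP inhibitors p21 (CDKN1A), p27 (CDKN1B) and p57 (CDKN1C) bind cyclin-CDK complexes, those of CDK2 with cyclin E or A above all, while the INK4 inhibitors p16 (CDKN2A), p15 (CDKN2B), p18 (CDKN2C) and p19 (CDKN2D) bind CDK4 and CDK6 and keep them from cyclin D. With these kinases inactive the RB protein stays unphosphorylated and holds back the E2F factors, which transcribe the genes of S phase. CDKN1A is known to be transcribed after DNA damage, and p21 and p16 are the inhibitors best known for arrest in senescent cells.

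The promoters of 6 of the 7 genes were found in the table of RefSeq promoters (build GRCh38.p14) used here, and none was found in it for CDKN1C. The 250 bases before the annotated start of 4 genes are given, each 5′ to 3′ on the gene's own strand. They were chosen because the RNA of CDKN1A and CDKN2B was higher at 7 days post-IR and that of CDKN1B and CDKN2C lower. Capitals mark 3 motifs, each searched on both strands. GGGCGG is the GC box, to which factors such as SP1 bind, and neighbouring boxes can share bases. The CCAAT box was searched by the letters of its name. GGCGGGAA is a form of the site known for the E2F factors. The windows are chr6:36678464-36678713 on the plus strand for CDKN1A, chr9:22009306-22009555 on the minus strand for CDKN2B, chr12:12717118-12717367 on the plus strand for CDKN1B and chr1:50968456-50968705 on the plus strand for the middle of 3 annotated starts of CDKN2C.
CDKN1A: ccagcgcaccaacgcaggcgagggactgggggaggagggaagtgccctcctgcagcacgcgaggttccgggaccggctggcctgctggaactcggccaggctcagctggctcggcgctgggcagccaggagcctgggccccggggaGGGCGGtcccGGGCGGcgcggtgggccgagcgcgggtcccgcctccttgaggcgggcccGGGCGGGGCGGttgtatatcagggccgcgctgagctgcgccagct
CDKN2B: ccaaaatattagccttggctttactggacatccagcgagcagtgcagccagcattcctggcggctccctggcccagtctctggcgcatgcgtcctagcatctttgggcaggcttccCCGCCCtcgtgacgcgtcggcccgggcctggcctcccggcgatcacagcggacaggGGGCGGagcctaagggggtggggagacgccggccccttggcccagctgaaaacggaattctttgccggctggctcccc
CDKN1B: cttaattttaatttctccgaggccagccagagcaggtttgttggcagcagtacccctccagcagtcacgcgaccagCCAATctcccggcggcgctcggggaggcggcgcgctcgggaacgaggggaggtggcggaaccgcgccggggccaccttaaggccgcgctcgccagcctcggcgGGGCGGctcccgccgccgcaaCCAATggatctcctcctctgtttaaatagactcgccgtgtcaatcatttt
CDKN2C: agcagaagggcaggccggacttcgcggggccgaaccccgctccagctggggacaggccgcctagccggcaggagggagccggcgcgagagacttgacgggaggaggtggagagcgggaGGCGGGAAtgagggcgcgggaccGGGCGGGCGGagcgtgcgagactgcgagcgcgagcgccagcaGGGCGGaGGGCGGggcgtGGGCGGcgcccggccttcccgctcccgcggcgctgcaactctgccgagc
The CDKN1A window held 4 GC boxes and the CDKN2B window 2. The CDKN1B window held 1 GC box and 2 CCAAT boxes. The CDKN2C window held 5 GC boxes and 1 E2F sequence. It was picked after the matches were seen, and of the windows at the other CDKN2C starts, the first held none of the motifs and the last 1 GC box and 1 CCAAT box. Of the 35116 promoters in the table, 42.6% held a GC box in a window of this length, 32.0% a CCAAT box and 2.72% the E2F sequence. These are matches of letters, and no binding was measured.

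The libraries held 22535659 to 40390961 counted reads, with a median of 33800193. Levels were computed as CPM, the counts scaled to a common library size after TMM normalization, and differences as log2 fold changes with their standard error (SE) from edgeR's quasi-likelihood test on the counts. A gene was called higher or lower where the log2 fold change passed 0.5 in size and the Benjamini-Hochberg adjusted p over the 14992 genes tested was under 0.05. NFKBIA, the target of the shRNA, was at 11.2 to 13.0 CPM in the knockdown libraries and at 23.5 to 42.0 CPM in the untreated ones, without overlap. Of the 5 markers of the osteoblast lineage, RUNX2, COL1A1, SPARC and ALPL were present in all groups, while SP7 had at most 3 counts in a library. The 6 measured markers of leukocytes, endothelium and epithelium summed to between 3.81 and 8.99 CPM in a library. Untreated replicate 5 stood apart from its group. It had the fewest reads, was the only untreated library from lane 3 by the lane number in its description, and held 1820 CPM of the proliferation marker MKI67 where the other untreated libraries held 434 to 801. Its root mean square distance from the mean of its group was 0.561 on the log2 CPM scale, against 0.156 to 0.386 for the other 19 libraries. The other untreated libraries were all from lane 2, and selected results are therefore also given without replicate 5 and with lane as a factor.

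At 1.5 h post-IR, CDKN1A was 3.06-fold higher than in untreated cells while CDKN1B was 1.70-fold and CDKN2C 1.43-fold lower, so that 1 of the 6 tested genes was called higher, 2 lower and 3 not. Over all genes tested 3.66% were called in this comparison, 2.08% higher and 1.57% lower. At 7 days post-IR all 6 were called, CDKN1A and CDKN2B as higher and CDKN1B, CDKN1C, CDKN2C and CDKN2D as lower, where 31.1% of all genes were called, 16.7% higher and 14.4% lower. In the knockdown CDKN2C alone was called, as lower, where 12.7% of all genes were called, 5.18% higher and 7.53% lower. Without untreated replicate 5 the same 6 genes were called at 7 days, while with lane as a factor CDKN1C and CDKN2B were not, and CDKN2B was not called either without untreated replicate 4 or 7 days replicate 4. At 1.5 h and without untreated replicate 5, CDKN2D was called lower in place of CDKN2C, and in the knockdown CDKN2D was called lower beside CDKN2C. The groups did not overlap for 3 of the 6 genes at 1.5 h, for 6 at 7 days and for 4 in the knockdown, where 12.3%, 44.8% and 24.1% of all genes did not overlap. In bulk RNA fewer cells that express a gene and less RNA per cell cannot be told apart.

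**Figure D1:**
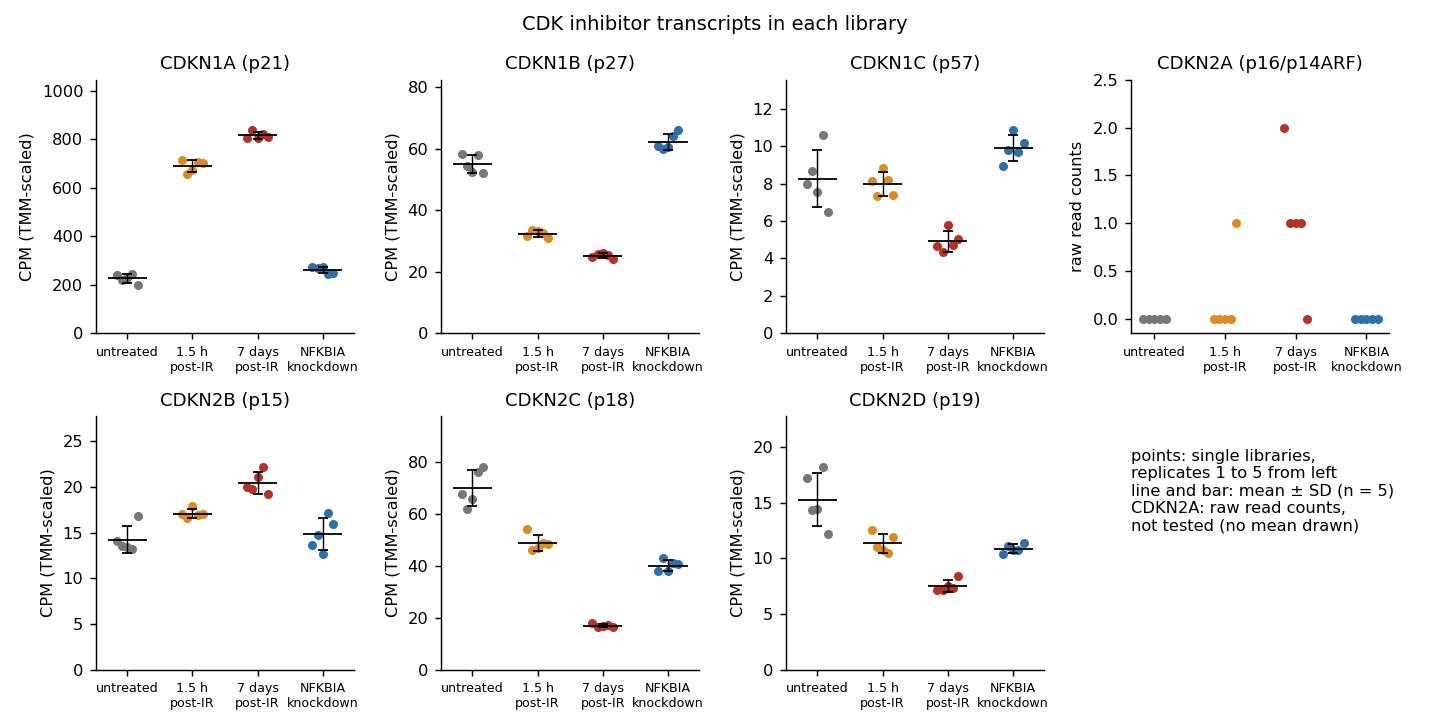
Each panel plots 1 gene, with the level in CPM on a linear axis and the 4 groups along the bottom; points are libraries in the order of replicates, and lines and bars are mean ± SD (n = 5). CDKN2A is drawn as raw read counts without a mean and did not exceed 2 counts in a library. The 7 days post-IR libraries lie highest for CDKN1A and CDKN2B and lowest for the other 4 tested genes.

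CDKN1A encodes p21, the inhibitor best known from the response to DNA damage. Its level was 239.3, 217.3, 229.0, 241.8 and 199.9 CPM in the untreated libraries 1 to 5. At 1.5 h post-IR it was 714.1, 656.5, 672.6, 705.0 and 701.6 CPM, and at 7 days post-IR 805.1, 836.8, 807.1, 822.8 and 810.6 CPM. In the knockdown it was 270.7, 267.3, 271.6, 243.1 and 248.7 CPM. The 4 groups did not overlap in any pair, and the order from low to high was untreated, knockdown, 1.5 h and 7 days. CDKN1A rose by a log2 fold change of 1.61 at 1.5 h (SE 0.053, edgeR adjusted p = 5.86e-15) and of 1.86 at 7 days (SE 0.053, adjusted p = 6.38e-17). Most of the difference was thus present at 1.5 h. Between 1.5 h and 7 days the log2 fold change was 0.24 (SE 0.051, edgeR adjusted p = 0.00033), which was under the fold threshold and was not called. The knockdown had a log2 fold change of 0.21 over untreated (SE 0.051, edgeR adjusted p = 0.00291), also under the fold threshold, and was 0.15 without untreated replicate 5 and 0.40 with lane as a factor (edgeR adjusted p = 0.0232).

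CDKN1B encodes p27, an inhibitor of CDK2 that is abundant in resting cells. Its level was 58.3, 54.4, 52.3, 57.9 and 52.2 CPM in the untreated libraries. It was 31.6, 33.6, 33.3, 32.7 and 30.9 CPM at 1.5 h post-IR and 24.8, 25.8, 26.1, 25.3 and 24.1 CPM at 7 days post-IR. The knockdown libraries had 60.8, 59.9, 60.6, 64.2 and 66.0 CPM. CDKN1B thus went opposite to CDKN1A after irradiation, and its 4 groups did not overlap either, with the knockdown highest and 7 days lowest. It fell at 1.5 h (log2 fold change -0.76, SE 0.046, edgeR adjusted p = 1.28e-10) and at 7 days (-1.13, SE 0.046, edgeR adjusted p = 1.97e-14). The log2 fold change between 7 days and 1.5 h was -0.36 and that between the knockdown and untreated 0.18, neither of which was called. In linear terms CDKN1B was 1.70-fold lower at 1.5 h and 2.18-fold lower at 7 days.

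CDKN1C encodes p57, the CIP/KIP member that is imprinted and best known from development. Its level was low, at 7.99, 8.69, 7.56, 10.6 and 6.47 CPM in the untreated libraries and 8.13, 7.32, 8.83, 8.17 and 7.36 CPM at 1.5 h post-IR. It was 4.68, 4.34, 5.77, 4.69 and 5.05 CPM at 7 days post-IR and 8.92, 9.82, 10.9, 9.68 and 10.2 CPM in the knockdown. The 7 days libraries were below all others, and the 1.5 h libraries lay within the range of the untreated ones. CDKN1C fell at 7 days (log2 fold change -0.75, SE 0.107, edgeR adjusted p = 3.18e-06) and not measurably at 1.5 h (-0.06, 95% confidence interval -0.27 to 0.16, edgeR adjusted p = 0.749). The difference between the 2 times was itself called, with a log2 fold change of -0.70 (SE 0.107, edgeR adjusted p = 8.58e-06). With lane as a factor, CDKN1C stood at -0.46 on the log2 scale at 7 days (edgeR adjusted p = 0.11) and was no longer called, and at 1.5 h it stood at 0.32 (edgeR adjusted p = 0.155), of the other sign. In that fit the comparisons with untreated cells go through untreated replicate 5, the single untreated library that shared a lane with another group.

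**Figure D2:**
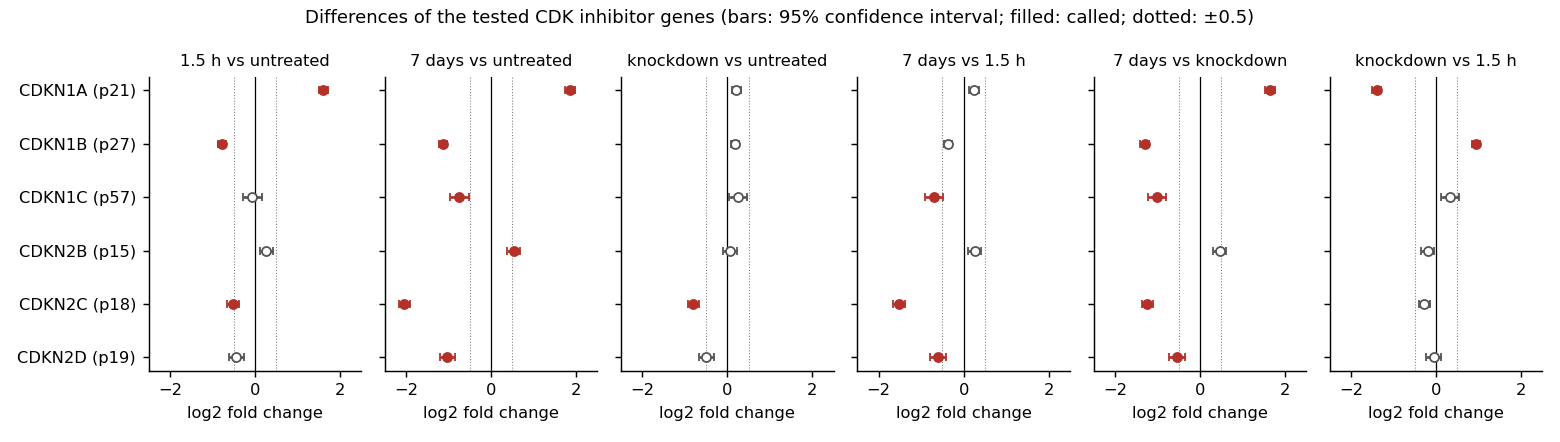
Each panel shows 1 comparison of groups, with the log2 fold change of the first group over the second on the horizontal axis and the 6 tested genes down the side. Points are edgeR estimates, bars are 95% confidence intervals from all 20 libraries, filled red points were called, and dotted lines mark the fold threshold of 0.5. At 7 days post-IR all 6 points are filled, CDKN1A at 1.86 and CDKN2C at -2.04 being the farthest from 0.

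CDKN2C encodes p18, the INK4 inhibitor that dividing cells commonly express. Its level was 67.8, 62.0, 65.8, 76.4 and 78.2 CPM in the untreated libraries, and 54.1, 46.3, 47.1, 48.9 and 48.5 CPM at 1.5 h post-IR. At 7 days post-IR it was 18.1, 16.3, 16.8, 17.2 and 16.6 CPM. In the knockdown it was 38.0, 43.0, 38.0, 41.2 and 40.6 CPM. No 2 groups overlapped, and the order from high to low was untreated, 1.5 h, knockdown and 7 days. CDKN2C had the largest fold change of the 6 genes at 7 days, where it was 4.11-fold lower than in untreated cells (log2 fold change -2.04, SE 0.066, edgeR adjusted p = 3.68e-16). It was the gene that was called lower in all 3 comparisons with untreated cells, with a log2 fold change of -0.80 in the knockdown (SE 0.063, edgeR adjusted p = 3.3e-09) and of -0.51 at 1.5 h (SE 0.062, edgeR adjusted p = 4.21e-06). The call at 1.5 h was close to the fold threshold and was lost without untreated replicate 4 (-0.49), untreated replicate 5 (-0.48), 1.5 h replicate 2 (-0.49) or 1.5 h replicate 3 (-0.50). From 1.5 h to 7 days it fell further, by 1.53 on the log2 scale (SE 0.065, edgeR adjusted p = 3.86e-14). The 7 days libraries were also below the knockdown, with a log2 fold change of -1.24 (SE 0.065, edgeR adjusted p = 1.08e-12).

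CDKN2D encodes p19, the other INK4 inhibitor of dividing cells. Its level was 17.2, 14.4, 14.4, 18.2 and 12.2 CPM in the untreated libraries and 12.6, 11.01, 10.7, 10.5 and 11.9 CPM at 1.5 h post-IR. It was 7.17, 7.13, 7.50, 7.33 and 8.38 CPM at 7 days post-IR and 10.4, 11.1, 10.8, 10.8 and 11.4 CPM in the knockdown. The 7 days libraries were again below all others, and 1.5 h and knockdown overlapped. CDKN2D fell at 7 days, by 1.03 on the log2 scale against untreated (SE 0.088, edgeR adjusted p = 1.77e-09) and by 0.60 against 1.5 h (SE 0.088, edgeR adjusted p = 5.28e-06). The log2 fold change was -0.43 at 1.5 h and -0.49 in the knockdown, neither of which was called. Both lay just inside the fold threshold, and without untreated replicate 5 they were -0.50 and -0.57 and were called. They moved the other way with lane as a factor, to -0.10 at 1.5 h (edgeR adjusted p = 0.614) and -0.32 in the knockdown (edgeR adjusted p = 0.325). The value for the knockdown also passed the threshold without untreated replicate 2 (-0.52), untreated replicate 3 (-0.51) or knockdown replicate 5 (-0.51).

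CDKN2B encodes p15, the INK4 inhibitor known as a target of TGF-β signalling. Its level was 14.1, 13.5, 13.5, 13.3 and 16.8 CPM in the untreated libraries and 17.0, 16.6, 17.9, 16.9 and 17.1 CPM at 1.5 h post-IR. It was 20.0, 19.8, 21.1, 22.2 and 19.3 CPM at 7 days post-IR and 13.7, 14.7, 12.7, 17.2 and 15.9 CPM in the knockdown. The 7 days libraries were above all others, and the knockdown and untreated libraries overlapped. CDKN2B was the INK4 gene that rose at 7 days, by a log2 fold change of 0.53 (SE 0.076, edgeR adjusted p = 3.53e-06), which is 1.44-fold. The call was lost without untreated replicate 4 (0.48) or 7 days replicate 4 (0.48), and with lane as a factor (0.25, edgeR adjusted p = 0.198). At 1.5 h the log2 fold change was 0.27, under the fold threshold, and the single untreated library at 16.8 CPM lay within the range of that group. The fold change at 1.5 h was 0.03 on the log2 scale with lane as a factor (edgeR adjusted p = 0.879). The knockdown had 0.06 (95% confidence interval -0.10 to 0.22, edgeR adjusted p = 0.534) over untreated. With lane as a factor the knockdown value was -0.36 (edgeR adjusted p = 0.183).

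CDKN2A encodes p16 and, from another first exon, p14ARF, and U2-OS cells are known for not expressing p16. It had 0 counts in each untreated and each knockdown library. At 1.5 h post-IR it had 1 count in replicate 5 and 0 in the others. At 7 days post-IR it had 2, 1, 1, 1 and 0 counts. All libraries were thus at or under 3 counts, the floor below which no fold was computed, and CDKN2A was not detectable above that floor at this depth. In the annotation of GENCODE 29 the antisense gene CDKN2B-AS1 and the gene AL359922.1, listed as protein coding, both overlap CDKN2A and CDKN2B on the other strand. Libraries were stranded, but whether the counting used strand is not given in the sources used here, so that reads of these genes cannot be told apart from those of CDKN2A and CDKN2B. The same holds for DINOL, which overlaps CDKN1A on the other strand, and AC008115.3 overlaps CDKN1B on the same strand.

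In exact permutation tests of log2 CPM, two-sided and of 5 libraries against 5, the smallest p that can be reached is 0.00794 (0.00986 after Benjamini-Hochberg adjustment over 36 tests, 6 genes in 6 comparisons). This value was reached by each gene in each comparison in which its groups did not overlap. Of the differences from untreated cells that were not called by edgeR, those of CDKN1A, CDKN1B and CDKN2D in the knockdown reached it. CDKN2B and CDKN2D at 1.5 h against untreated had an exact p of 0.0159 (0.0185 adjusted). CDKN1C in the knockdown against untreated had an exact p of 0.0635.

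Levels of different genes were compared as CPM per kb of the gene length given in the table. In untreated cells CDKN1A was highest at 75.5 ± 5.78 CPM per kb (SD, n = 5), followed by CDKN2C at 21.1 ± 2.10 and CDKN1B at 19.6 ± 1.05, whose libraries overlapped. CDKN2D followed at 10.2 ± 1.60, CDKN2B at 3.51 ± 0.367 and CDKN1C at 3.19 ± 0.591, the last 2 of which overlapped. At 7 days post-IR CDKN1A was at 273.5 ± 4.45 CPM per kb and CDKN1B at 8.96 ± 0.277. CDKN2C at 5.13 ± 0.214, CDKN2B at 5.04 ± 0.290 and CDKN2D at 4.99 ± 0.341 CPM per kb then overlapped. These 3 INK4 genes, in untreated cells spread from CDKN2C down to CDKN2B, were thus at similar length-scaled levels at 7 days.

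The sum of all 7 genes was 133.1 ± 8.44 CPM per kb (SD, n = 5) in untreated cells, 272.3 ± 8.96 at 1.5 h, 299.6 ± 4.199 at 7 days and 136.2 ± 2.95 in the knockdown. CDKN1A made up 56.7% ± 1.71 of it in untreated cells, 84.9% ± 0.367 at 1.5 h, 91.3% ± 0.251 at 7 days and 64.0% ± 2.01 in the knockdown. Without CDKN1A the sum went the other way, from 57.6 ± 3.71 CPM per kb in untreated cells to 41.1 ± 1.22 at 1.5 h and 26.0 ± 0.530 at 7 days, and it was 48.99 ± 1.84 in the knockdown. The INK4 genes together were at 34.8 ± 2.69 CPM per kb in untreated cells, 26.5 ± 1.41 at 1.5 h, 15.2 ± 0.372 at 7 days and 23.0 ± 1.15 in the knockdown. The ratio of CDKN1A to CDKN1B per kb was 3.86 ± 0.192 in untreated cells, 20.1 ± 1.33 at 1.5 h, 30.5 ± 0.897 at 7 days and 3.95 ± 0.354 in the knockdown. Both irradiated groups lay above the untreated and knockdown libraries in this ratio without overlap, while the untreated and knockdown libraries overlapped.

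**Figure D3:**
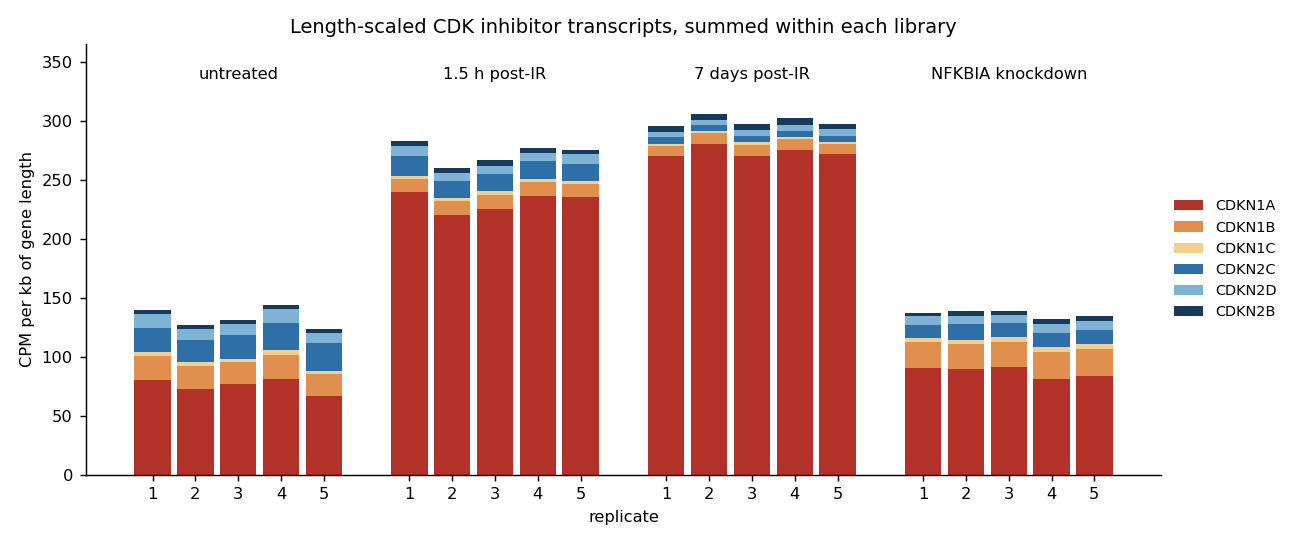
Each bar is 1 library, grouped by condition and ordered by replicate, and its height is the summed level of the inhibitor genes in CPM per kb of gene length on an axis from 0. Colours divide the bar by gene, reds for CIP/KIP and blues for INK4, and CDKN2A is too low to draw. The irradiated libraries are more than 250 CPM per kb high, and CDKN1A makes up 84.9% of the sum at 1.5 h and 91.3% at 7 days in the mean, while INK4 genes take up 26.2% of the sum in untreated cells and 5.06% at 7 days.

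The 7 days post-IR libraries were further compared with the other groups. Against 1.5 h, none of the 6 tested genes was called higher and CDKN1C, CDKN2C and CDKN2D were called lower, where 29.3% of all genes were called, 16.8% higher and 12.6% lower. The libraries of these times did not overlap for any of the 6 genes, as for 61.8% of all genes. Against the knockdown, CDKN1A was higher (log2 fold change 1.65, SE 0.053) and CDKN1B (-1.31, SE 0.046), CDKN1C (-1.01, SE 0.106), CDKN2C and CDKN2D (-0.54, SE 0.089) were lower, where 25.7% of all genes were called, 15.8% higher and 9.89% lower. None of the 6 genes overlapped there, as for 60.7% of all genes. CDKN2B had a log2 fold change of 0.47 in that comparison, which passed the threshold without knockdown replicate 4 (0.50) and with lane as a factor (0.61). With lane as a factor CDKN2D was at -0.43 against the knockdown and was not called. In that fit the comparison goes through knockdown replicate 1, the single knockdown library that shared a lane with another group. Between the knockdown and 1.5 h, CDKN1A was lower in the knockdown (-1.41, SE 0.052) and CDKN1B higher (0.94, SE 0.046), where 14.1% of all genes were called, 6.54% higher and 7.6% lower. These groups did not overlap for 4 of the 6 genes, as for 43.6% of all genes. The 3 comparisons with untreated cells share their control libraries, and those of 7 days share the 7 days libraries.

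The inhibitors act on cyclins and CDKs, of which 12 of 13 listed genes were tested. At 1.5 h CCNE2, the gene of a cyclin of CDK2, was called higher (log2 fold change 0.67, SE 0.074) and none was called lower. Of all genes 2.08% were called higher there and 1.57% lower. With lane as a factor CCNE2 was at 0.40 and not called. In that fit 1 gene of the list was called lower, as were 2039 of all 14992 genes. At 7 days CCND1 (0.98, SE 0.047) and CCND2 (0.83), which encode D cyclins, the partners that the INK4 proteins compete with, rose, while CCNA2 (-1.18, SE 0.046), CCNB2 (-1.16, SE 0.072), CCNB1 (-0.91) and CDK1 (-0.58), the cyclins and kinase of S phase and mitosis, fell. The other D cyclin gene, CCND3, was at 0.14 (edgeR adjusted p = 0.219) and was not called. CCND2, CCND3, CCNB1 and CDK1 were named after their values were seen. At 7 days the log2 median of the list was -0.32, where that of all genes tested was 0.01 and 16.7% of them were called higher and 14.4% lower. CDK4 and CDK6, the kinases bound by INK4 proteins, had log2 fold changes of -0.27 and 0.23 at 7 days and were not called, and were likewise named after their values were seen. In the knockdown CCNE2 fell (-0.52, SE 0.076), a call that was lost without untreated replicate 5 (-0.47), knockdown replicate 3 (-0.49) or knockdown replicate 5 (-0.49), and with upper-quartile factors (-0.49) or library size alone (-0.46).

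Of the 13 RB and E2F genes, all tested, none was called at 1.5 h, where 3.66% of all genes were called. Their median was 0.16 on the log2 scale, where that of all genes was -0.03. At 7 days 4 fell and none rose, where 14.4% of all genes were called lower and 16.7% higher, and the log2 median of the list was -0.08 where that of all genes was 0.01. With 31.1% of all genes called in either direction, the share of this list that was called was near the background. The 4 genes were E2F2 (log2 fold change -1.49, SE 0.069), which went from 30.04 ± 2.55 to 10.7 ± 0.810 CPM (SD, n = 5), E2F8 (-1.22, SE 0.121), E2F1 (-0.93, SE 0.084) and RBL1, the gene of the RB relative p107 (-0.71, named after its value was seen). RB1 itself was at -0.08 and was not called. With lane as a factor E2F1 was at -0.49 at 7 days and was not called, and at 1.5 h 4 genes of the list were called higher and 1 lower, where that fit called 1781 of all 14992 genes higher and 2039 lower. In the knockdown E2F2 (-0.60, SE 0.066) and E2F8 (-0.58, SE 0.118) fell and E2F5 (0.55, SE 0.117) rose. Of all genes 7.53% were called lower there and 5.18% higher. Without untreated replicate 5 the calls of E2F8 (-0.43) and E2F5 (0.41) were lost, and with lane as a factor E2F2 was at -0.40 and was not called.

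Genes of the turnover of p21 and p27, which encode proteins of ubiquitin ligases and others associated with them, formed a list of 15 genes. None of them was called at 1.5 h or in the knockdown, where 3.66% and 12.7% of all genes were called. At 7 days 6 fell and none rose, where 14.4% of all genes were called lower and 16.7% higher, and the log2 median of the list was -0.40 where that of all genes was 0.01. CDC20, an activator of the anaphase-promoting complex, fell by 1.19 on the log2 scale (SE 0.073). SKP2, the subunit that recognises p27, fell from 70.0 ± 8.38 to 37.4 ± 1.31 CPM (log2 fold change -0.90, SE 0.062). CKS1B, its cofactor, had -0.78 (SE 0.146), and with lane as a factor 0.22 (edgeR adjusted p = 0.353), of the other sign. CKS2 (-0.60), RBX1 (-0.51) and DTL (-0.51) were the other 3, named after their values were seen. CDKN1B RNA was lower in the same libraries, and protein levels were not measured in these files. Without untreated replicate 5 the number that fell was 5, and with lane as a factor 3 fell at 7 days and 3 were called higher at 1.5 h, where that fit called 2920 of all 14992 genes lower at 7 days and 1781 higher at 1.5 h.

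The list of 13 transcriptional regulators of the CIP/KIP genes included MDM2, a ubiquitin ligase of the DNA damage response and not a transcription factor. MDM2 was the only one called at 1.5 h (log2 fold change 1.28, SE 0.040), where 3.66% of all genes were called. With lane as a factor 2 genes of the list were called lower at 1.5 h, where that fit called 2039 of all 14992 genes lower. MDM2 was at 204.7 ± 7.42 CPM in untreated cells, 497.7 ± 13.8 at 1.5 h, 703.6 ± 11.02 at 7 days and 196.6 ± 7.21 in the knockdown. At 7 days MDM2 (1.78, SE 0.041), KLF6 (0.70) and FOXO1 (0.55) rose and HES1 (-0.82, SE 0.101) and KLF4 (-1.12, SE 0.235) fell, where 16.7% of all genes were called higher and 14.4% lower. KLF6 and FOXO1 were named after their values were seen, and KLF4 was at 0.488 CPM or less in the mean of each group. The number of genes that rose was 5 without untreated replicate 5 and 1 with lane as a factor, a fit that called 3268 of all 14992 genes higher and in which KLF4 (-1.03, edgeR adjusted p = 0.229) was not called. In the knockdown HES1 alone was called, as lower (-0.60), where 5.18% of all genes were called higher and 7.53% lower. The call of HES1 was lost without untreated replicate 5 (-0.47). Among other settings, 1 gene of the list was called higher with upper-quartile factors, library size alone or the replicate block, as were 859, 971 and 777 of all genes. With lane as a factor 1 was called higher and 3 lower, where that fit called 1994 and 2094 of all genes.

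Of 18 regulators of the INK4 genes 16 were tested. None was called at 1.5 h, where 3.66% of all genes were, or in the knockdown, where 12.7% were. At 7 days EZH2, the methyltransferase of Polycomb complex PRC2, fell from 34.0 ± 0.909 to 16.4 ± 0.831 CPM (log2 fold change -1.05, SE 0.044). CBX2, a subunit of PRC1 (-0.84, SE 0.062), and ETS2, an activator of CDKN2A (-0.71, named after its value was seen), also fell. TBX3, a repressor of the locus, rose (0.74, SE 0.107), but was at 0.26 with lane as a factor and then not called. In the fit without lane 1 gene was thus called higher and 3 lower at 7 days, where 31.1% of all genes were called, 16.7% higher and 14.4% lower. With lane as a factor 7 of the 16 genes were called lower at 7 days, where 2920 of all 14992 genes were, 1 was called higher and 1 lower at 1.5 h, and 1 was called higher and 5 lower in the knockdown. Over all genes that fit called 1781 higher and 2039 lower at 1.5 h, and 1994 higher and 2094 lower in the knockdown. In the knockdown 1 gene was called lower without untreated replicate 1 or 2, and 2 without untreated replicate 4. Over all genes those 3 fits called 1198, 1233 and 1344 lower. MTAP, which lies beside CDKN2A on chromosome 9, was at 44.9 ± 2.51 CPM in untreated cells and 69.4 ± 1.48 CPM at 7 days (0.63, SE 0.046) and was called, while the other 4 transcripts listed as neighbours were not analysed here.

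**Figure D4:**
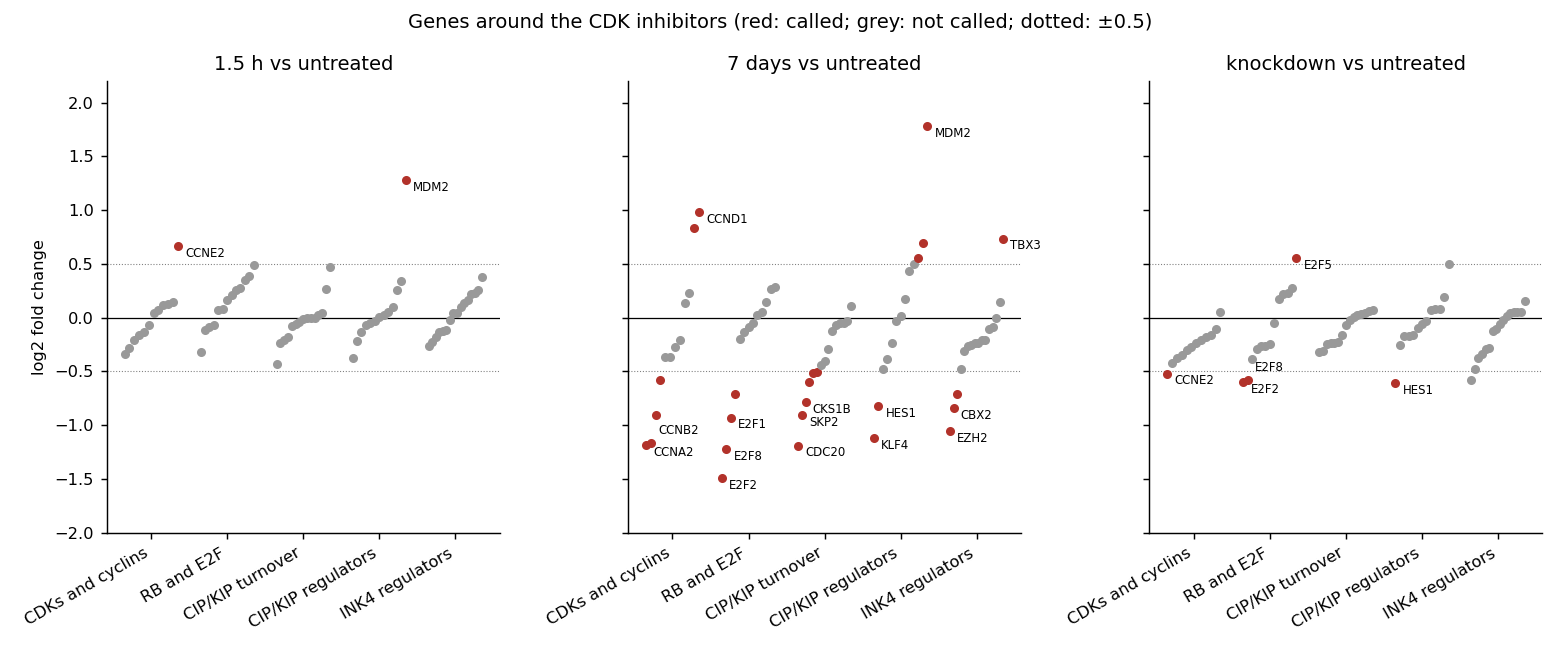
Each point is 1 tested gene of 5 lists, with its log2 fold change against untreated on the vertical axis and 1 panel for each of the 3 comparisons. Red points were called, grey points were not, labels give up to 3 called genes of each list, and dotted lines mark ±0.5. At 1.5 h the red points are CCNE2 and MDM2, while at 7 days 19 red points lie below -0.5 and 6 above 0.5 over the lists drawn, where 14.4% of all genes were called lower and 16.7% higher.

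The proliferation marker MKI67 was at 434 to 1820 CPM in untreated libraries, 531 to 620 at 1.5 h, 255 to 279 at 7 days and 461 to 531 in the knockdown, and LMNB1, the lamin gene known to fall in senescent cells, at 301 to 333, 277 to 300, 101 to 111 and 236 to 255 CPM. Both were thus lowest at 7 days, as were CDKN2C, CDKN2D, CDKN1B and CDKN1C, and the part of proliferation in those differences was not tested.

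For each tested inhibitor gene the genes with the most alike pattern were found by the root mean square difference of log2 CPM over the 4 group means, each centred on its own mean. For CDKN1A these were IL18RAP (0.117), MDM2 (0.136) and KCNJ2 (0.148). For CDKN1B they were FAM110D (0.118), METTL7A (0.142) and PIANP (0.148). For CDKN2C they were LMOD1 (0.0962), TMEM37 (0.0976) and IGLON5 (0.117), so that for these 3 inhibitors no gene came closer than about 0.1. The smaller patterns of the others had closer matches, which were PC (0.00763), P3H2 (0.0264) and CPS1 (0.0280) for CDKN1C, SOAT1 (0.0138), NAPB (0.0143) and ZBTB11 (0.0145) for CDKN2B, and B3GAT1 (0.0205), SPC24 (0.0273) and SKA3 (0.0331) for CDKN2D. SPC24 and SKA3 encode kinetochore proteins.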

How the data were processed

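RNA-seq counts of 20 libraries were analysed, 5 per group. The authors deposited whole-number read counts per gene without normalization, with a gene length. Per the labels, the submitters' processing notes name bcl2fastq, Trimmomatic, STAR 2.4.2a and build hg19. The counting tool, its annotation and its strand setting are not given in the sources used here. Gene positions and overlaps came from GENCODE 29 (GRCh38), and promoters from RefSeq (GRCh38.p14).

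All libraries entered 1 edgeR 4.0.16 fit in R 4.3.3 (filterByExpr with a minimum count of 10, TMM, quasi-likelihood test, 1 term per group), and 14992 of 20314 genes were tested. SEs were computed from the F statistic. Log2 CPM for the permutation tests and patterns used a prior count of 2. On simulated data for 7 days against untreated, with 14849 genes tested, 189 of 200 changed genes and 3 unchanged genes were called. No 2 libraries of a group differed by less than sampling noise. The p values measure the spread between the libraries, which includes counting error. That error weighs more for genes with few counts, such as CDKN2D with 217 to 260 counts at 7 days.

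Alternatives were RLE, upper-quartile and no scaling factors, no filter or at least 10 counts in every library, only the 2 groups compared, the replicate number as a block, lane as a factor or within lanes, limma-voom 3.58.1, DESeq2 1.42.0, and leaving out each library. They were applied to the gene lists after the data were seen. The 7 genes, the lists (written from general knowledge) and the tests were chosen with earlier results of these data known. Named were all 7 genes, the 3 called genes of each list with the largest change in each comparison (main values for the comparisons with untreated cells are given), the 3 genes most alike in pattern, and NFKBIA, besides those named as chosen later. PCGF2, CDKN2B-AS1, KCNQ1OT1, PANDAR, DINOL and PECAM1 were not analysed here. Values of some listed genes are not reported here.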

Additional observations from a re-analysis of the deposited data

Results flagged for a closer look

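CDKN2B in untreated replicate 5 lay apart from its group. The gap of its log2 CPM to the nearest untreated library was 0.747 of the range of the group, above the critical value of 0.71 for 5 samples. Over 24 groups tested chance alone flags about 1 in 20. That library also stood apart over all genes, and without it CDKN2B was at 0.32 on the log2 scale at 1.5 h and at 0.57 at 7 days against untreated.

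The difference between the 2 times after irradiation was called for 3 genes by edgeR, where 29.3% of all genes were called. The log2 fold change of 7 days against 1.5 h was -0.70 for CDKN1C, -1.53 for CDKN2C and -0.60 for CDKN2D. CDKN1A (0.24), CDKN1B (-0.36) and CDKN2B (0.26) also differed, under the fold threshold (edgeR adjusted p = 0.00033, 7.69e-07 and 0.00482). The libraries of the 2 times did not overlap for any of the 6 tested genes, as for 61.8% of all genes.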

How the results depend on the processing

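Values are log2 fold changes from edgeR unless named. With lane as a factor, CDKN1C at 1.5 h against untreated was 0.32 (0.30 within lane 3) in place of -0.06, CDKN1C at 7 days -0.46, CDKN2B at 7 days 0.25, CDKN2B in the knockdown -0.36, CDKN2B at 7 days against the knockdown 0.61 (0.60 within lane 5) and CDKN2D there -0.43 (-0.44 within lane 5). At 1.5 h CDKN2D was then -0.10 and CDKN2B 0.03, and CDKN1A in the knockdown was 0.40. CKS1B at 7 days was 0.22. Over all alternatives 99 counts of called genes in the lists moved by over 1.5 times, or to or from 0, and 1131 did not. The lane fit ties untreated cells to the other groups through 1 library, untreated replicate 5, and then called 1781 genes higher and 2039 lower at 1.5 h (1644 and 2210 within lane 3, against 312 and 236 without the factor), 1994 and 2094 in the knockdown, and 527 and 659 for the knockdown against 1.5 h. Knockdown replicate 1 was the only knockdown library in lane 5. The lane fit ties the knockdown to the other groups through it, and the values within lane 5 rest on it. Group and lane are largely confounded and cannot be told apart outside the shared lanes.

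CDKN2D in the knockdown was called with RLE factors (-0.50), no filter (-0.52), at least 10 counts in every library (-0.51) and DESeq2 (-0.51), but was -0.32 and not called with lane as a factor. CDKN2C at 1.5 h was not called with library size alone (-0.49) or only the 2 groups compared (-0.49), nor CDKN2B at 7 days with no filter (0.49). Genes called lower at 1.5 h numbered 94 with only the 2 groups compared and 152 by limma-voom. The cause of these changes was not tested.

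Leaving out each library gave -0.13 to 0.034 for CDKN1C at 1.5 h, -0.56 to -0.48 for CDKN2C and -0.50 to -0.37 for CDKN2D, 157 to 343 genes lower at 1.5 h, 0.48 to 0.57 for CDKN2B at 7 days, -0.57 to -0.45 for CDKN2D in the knockdown and 0.40 to 0.50 for CDKN2B at 7 days against the knockdown. CDKN1C at 1.5 h changed sign without untreated replicate 4, and the 157 genes were those without 1.5 h replicate 2.

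The replicate numbers did not pair the libraries. Deviations of same-numbered libraries correlated between -0.254 and 0.123 in 30 pairs, and 2 of 20 libraries correlated best with their own number. With the number as a replicate block all 36 values of the inhibitor genes kept their side of the threshold, CDKN1A at 7 days being 1.86 and CDKN2C -2.04, and genes called lower at 1.5 h numbered 186.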

Other observations

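CDKN3, CDK2AP1, CDK2AP2, CDKN2AIP and CDKN2AIPNL, genes with related names, were looked at after their values were seen. CDK2AP1, CDKN2AIP and CDKN2AIPNL were called in no comparison. Their log2 fold changes at 7 days against untreated were -0.14, 0.38 and 0.03. CDKN3, which encodes a phosphatase of CDKs and is named as an inhibitor though it belongs to neither family, had a log2 fold change of -0.41 at 1.5 h, where it was not called. It fell at 7 days (-1.49, SE 0.103, edgeR adjusted p = 6.45e-11) and in the knockdown (-0.79, SE 0.101, edgeR adjusted p = 2.72e-06). CDK2AP2, the gene of a CDK2-associated protein, fell at 7 days (-0.61, SE 0.116, edgeR adjusted p = 0.000103) and was not called at 1.5 h or in the knockdown (-0.43 in each).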
